A study of Drosophila melanogaster with 88 samples.

Results

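Transposable element insertions in the heads of male Drosophila melanogaster were followed one by one and by family. The members were the rows of the male count table that stand for a single annotated insertion and that held at least 10 reads summed over the 56 male libraries. Of 5571 insertion rows, 1836 met this rule. Another 1018 rows held 1 to 9 reads and 2717 rows held none. For comparison, the same table has 17830 gene rows. The members carried 99.5% of all insertion reads. A family name was given for 1820 members, which fell into 118 families, and 16 members had none.

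The series profiles flies that carry the P58S form of VAP, the fly counterpart of the human ALS gene VAPB, and flies that carry the WT form. Male heads of P58S and of WT were taken at days 5, 15 and 20. In a second set, heads of P58S males with Repo-Gal4, a driver active in glia, were taken at days 5 and 15. That set has 3 arms in which the glial driver acts on kay, the fly Fos gene: a knockdown (KayKD), overexpression of the wild-type form (KayWT) and KaySCR, an overexpression construct that the labels do not describe further. The driver alone is the control of these arms, and all 4 genotypes of the second set carry P58S. Each of the 14 groups has 4 libraries of whole heads, and the labels do not say how the flies were pooled or in which stock each transgene was made.

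Transposable elements are mobile DNA sequences. LTR retrotransposons (roo, copia, blood, 297) and non-LTR retrotransposons (Doc, jockey, F) move through an RNA copy, whereas DNA transposons move as DNA, and INE-1 is an old, short element that no longer moves. HeT-A and TART are non-LTR elements that maintain fly telomeres, and R2 inserts into the 28S genes of the ribosomal DNA. Small RNAs hold elements down, piRNAs mainly in the germ line and siRNAs in somatic cells such as neurons, together with heterochromatin. Insertions differ between fly stocks, so a stock can lack a copy that the reference genome has. A copy that the reference lacks can lend its reads to a similar annotated copy.

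Levels are given in CPM, the reads of an insertion for every 1000000 gene reads of the same library. They come from 3′-end sequencing, in which a read marks a transcript end, and they are not divided by length. Whether copies of the same molecule were counted once is not stated. Depth ran from 2477839 to 16477528 gene reads per library in the P58S and WT set and from 1205951 to 15022992 in the kay set. In one library 3 reads, the limit that a count of 0 allows, correspond to 0.182 to 2.49 CPM, and such limits cover counting error only. The insertion rows together made up between 0.1695% and 0.2596% of each library. In whole heads, fewer cells of a type and less RNA per cell cannot be told apart. Neuron, photoreceptor and glia markers were high in all libraries, with summed levels of 4081 to 6583, 13810 to 37850 and 3317 to 8863 CPM. Markers of testis summed to 0.791 to 11.9 CPM, except for 330 CPM in 1 KayWT library of day 5. Markers of the accessory gland and of the ovary stayed at or below 6.02 and 4.10 CPM. The kay gene itself was not lower in KayKD than in driver heads (log2 fold change -0.05 ± 0.08 SE, edgeR adjusted p = 0.785). It was higher in KaySCR heads (0.30 ± 0.08, adjusted p = 0.0220), and in KayWT heads the change was 0.08 ± 0.08 (adjusted p = 0.636).

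The members' reads were unevenly spread. The 10 members with most reads held 24.1% of the insertion reads, and the median member had 65 reads in all 56 libraries together. R2{}RR48361, on chromosome X at 23220092 to 23223699 beside a 28S ribosomal pseudogene, alone held 7.92% of all insertion reads. The shares that follow are of the members' reads. By class, 584 LTR elements held 32.5% of the reads and 443 non-LTR elements held 32.9%. The 485 Helitron-like elements, all of them INE-1, held 19.2%, and 273 DNA transposons with terminal inverted repeats held 12.5%. Position matters for such counts, because a read inside an intronic insertion can come from the host transcript. Of the members, 641 lay in an intron on the strand of the host gene, 333 in an intron on the other strand and 748 between genes. Another 49 overlapped an exon on the same strand and 65 an exon on the other strand. The families with most reads were INE-1 (485 members), Doc (65 members, 11.6%), R2 (1 member, 7.96%) and roo (119 members, 4.81%).

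Which insertions were read at all differed between genotypes, and so did the depth of the pooled libraries. With the libraries of a genotype pooled, 175 members had no read in P58S and 198 had none in WT. No read was found for 477 members in KayKD, 357 in KayWT, 292 in KaySCR and 413 in the driver alone. A pooled count of 0 allows up to 0.0299 CPM in P58S and 0.0414 CPM in WT (12 libraries each). With 8 libraries each, it allows 0.0828 CPM in KayKD, 0.0403 in KayWT, 0.0524 in KaySCR and 0.0751 in the driver alone. The numbers of unread members were not corrected for this, so depth and genotype are mixed in them. KaySCR nevertheless had fewer unread members than the deeper KayWT. At least 3 reads in each of the 6 genotypes were found for 790 members. Conversely, 43 members had 50 or more reads in one genotype and none in another. Whether such copies are present in the DNA of each stock was not measured.

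The summed level of all members passed the test in none of 11 comparisons. With 4 libraries per group and adjustment over 11, no comparison could have passed alone, so little follows from this. At day 5 it averaged 2305 ± 188 CPM in P58S and 2255 ± 126 CPM in WT heads (SD, n = 4 each; exact permutation test, two-sided, p = 0.857). At day 15 the means were 2499 ± 85.8 CPM in P58S and 2493 ± 45.7 CPM in WT heads. At day 20 they were 2312 ± 94.2 CPM in P58S and 2265 ± 115 CPM in WT heads. Over all 11, the adjusted exact permutation p-values ran from 0.629 to 0.971. The smallest unadjusted p that 4 against 4 libraries allow is 0.0286. The 11 included the kay arms at each age and day 20 against day 5 in P58S and in WT. Day 15 against day 5 was not tested for this sum. In the driver alone the sum averaged 2264 CPM at day 15 and 1833 CPM at day 5. It averaged 2127 and 1753 CPM in KayWT, 2222 and 2024 CPM in KaySCR, and 2088 and 2017 CPM in KayKD.

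P58S heads differed from WT heads in a small number of single insertions. After a filter on low counts, 403 members could be tested in this set, and 43 passed an edgeR adjusted p of 0.05 in the mean over the 3 ages, 19 higher and 24 lower in P58S. Over all 10144 features tested, 5.96% passed, 2.82% of them higher and 3.14% lower. Of the 43 members, 40 had the same sign at all 3 ages, as had 568 of the 605 features called, and the call uses the mean of these ages. For 11 members all 12 P58S libraries lay outside the range of all 12 WT libraries, against 0.345% of all features. The median log2 fold change was 0.03 over the tested members and 0.00 over all features. In this and the later comparisons, a member that passes the filter only through the group where it is high has to differ. The p-value of such a member is no added evidence. Among them here are 1360{}1515, jockey{}986, Juan{}768, 412{}1021, Tc1-2{}5456 and FB{}31. All of these but FB{}31 are also among the 11 members without overlap, so that count is partly set by the filter. Genotype and stock go together here, and with them the DNA copies that each stock carries, so a change in transcription and a difference in stock cannot be told apart for any insertion in this comparison.

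The telomeric elements moved in both directions. HeT-A{}5504 (chromosome X, 114047 to 116407, between genes near the chromosome end) had 20.5, 20.6, 26.4 and 15.3 CPM in P58S heads at day 5, against 2.61, 4.23, 2.04 and 2.72 CPM in WT heads. At day 15 it had 19.8, 16.3, 13.6 and 25.5 CPM in P58S heads and 4.04, 4.55, 2.13 and 3.63 CPM in WT heads. At day 20 it had 16.3, 20.1, 18.7 and 17.7 CPM in P58S heads and 2.89, 1.70, 3.13 and 5.10 CPM in WT heads. Every P58S library was above every WT library, and HeT-A{}5504 rose by 2.64 ± 0.17 on the log2 scale (adjusted p = 1.69e-11).

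TART-B{}1567, a 468-base copy on chromosome 4 at 1274141 to 1274608, ranged from 8.57 to 17.9 CPM in the 12 P58S libraries (median 13.4), against 0.325 to 2.81 CPM in the 12 WT libraries (median 1.06). The ranges did not overlap, and it rose by 3.44 ± 0.26 (adjusted p = 3.48e-10). A pair of HeT-A copies at the end of chromosome 4 went the other way. HeT-A{}6268 (1301834 to 1307750) had a median of 3.75 CPM in P58S (2.51 to 8.63) and 17.8 CPM in WT (13.1 to 24.7), and HeT-A{}6262 (1314342 to 1320140) had a median of 4.00 CPM in P58S (2.24 to 7.57) and 12.3 CPM in WT (8.85 to 20.4). Both were lower in every P58S library than in any WT library. They fell by 2.13 ± 0.13 (adjusted p = 9.45e-12) and 1.58 ± 0.16 (adjusted p = 9.31e-08). Summed over its 15 members, the HeT-A family fell by 0.37 ± 0.08 (adjusted p = 0.00282).

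**Figure D1:**
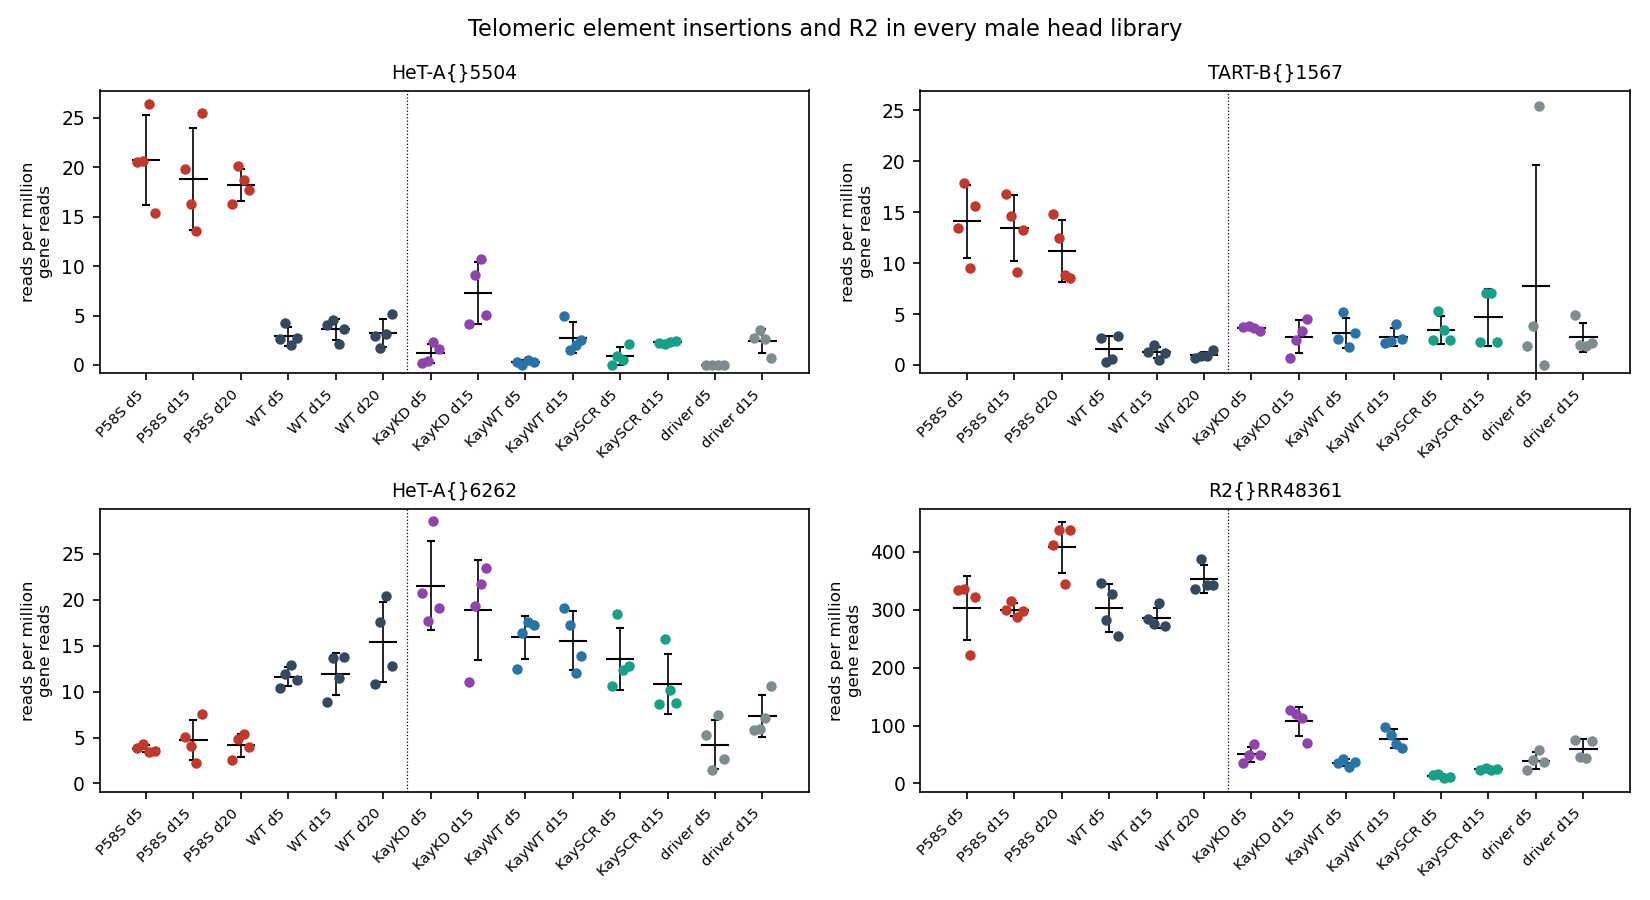
Level in CPM (vertical axis) of 3 telomeric insertions and of R2{}RR48361 in each male head library, with groups along the horizontal axis and a dotted line between the 2 sets. Points are libraries, bars are means and error bars are SD (n = 4). HeT-A{}5504 and TART-B{}1567 are high in P58S, HeT-A{}6262 is low in P58S and in the driver alone, and R2 is lower in all groups of the kay set than in P58S or WT heads.

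Among the non-LTR elements, jockey{}986 (chromosome 3L, 12875004 to 12877212, between genes) was nearly unread in WT. It had 1.60 to 6.99 CPM in P58S libraries (median 3.90, 402 reads), against 0 to 0.351 CPM in WT libraries, of which 9 of 12 had no read. The groups did not overlap, and it rose by 5.27 ± 0.46 (adjusted p = 4.50e-09). Juan{}768 showed the reverse, with no read in 10 of 12 P58S libraries and at most 0.466 CPM, against 0.745 to 2.89 CPM in WT (median 1.26). It fell by 4.37 ± 0.60 (adjusted p = 2.70e-05). All 6 called F insertions were lower in P58S, among them F{}1037 (fell by 1.60, adjusted p = 0.0173) and F{}1387 (fell by 1.63, adjusted p = 0.0299), and the summed F family, with 64 members, fell by 0.57 ± 0.07 (adjusted p = 9.92e-07). F{}1387 lies in an intron of myd on the strand of that gene. F{}1037 lost its call without replicate 2 of WT day 20 (adjusted p = 0.123), and F{}1387 did so in 8 of 24 fits that left out 1 library.

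Among LTR elements, blood{}375 (chromosome 2L, 15446106 to 15453517, between genes) had 0.349 to 5.48 CPM in P58S libraries (median 2.18), against 8.07 to 27.6 CPM in WT libraries (median 17.6). The ranges did not overlap, and it fell by 2.75 ± 0.21 (adjusted p = 3.75e-10). A 412 copy that overlaps an exon of CG7564 on the other strand, 412{}1021, was unread in 7 of 12 P58S libraries and reached 0.697 CPM, while all WT libraries held 1.02 to 2.92 CPM (fell by 4.13 ± 0.57, adjusted p = 3.24e-05). Higher in P58S were copia{}293 (2.57 ± 0.45, adjusted p = 0.000434), 297{}263 (1.94 ± 0.44, adjusted p = 0.00608) and mdg1{}305 in an intron of dpy (1.33 ± 0.36, adjusted p = 0.0240). The libraries of both genotypes overlapped for these 3, and mdg1{}305 lost its call in 3 of 24 fits that left out 1 library. Further lower members were invader2{}633 in Nipped-A (-2.90 ± 0.44) and Burdock{}783 in an exon of CG30345 (-2.73 ± 0.63).

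The DNA transposons held the clearest absence. 1360{}1515 (chromosome 4, 456757 to 457862, between genes) had no read in any of the 12 P58S libraries, which pooled allows a level of up to 0.0299 CPM. All 12 WT libraries had it, at 0.365 to 2.46 CPM with a median of 1.22. With 3 reads over the whole P58S group as the limit, it was at least 42.5-fold lower in P58S. A foldback element on X in kirre, FB{}31, had 154 reads in P58S (median 1.22 CPM) and 6 reads in WT, where 10 of 12 libraries had none (4.93 ± 0.78, adjusted p = 0.000317). H{}84, the member that holds 86.8% of the reads of the H family, had a median of 45.4 CPM in P58S (31.3 to 61.7) and 29.2 CPM in WT (13.9 to 37.1). It rose by 0.73 ± 0.11 (adjusted p = 3.24e-05).

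A pair of insertions in one gene changed in opposite directions. INE-1{}5345 and Tc1-2{}5456 both lie in introns of PMCA, a plasma membrane calcium pump gene on chromosome 4, on the strand of the gene, at 332341 to 332772 and 346641 to 347726. INE-1{}5345 had 12.1 to 30.5 CPM in P58S and 1.95 to 11.5 CPM in WT, without overlap (1.82 ± 0.21, adjusted p = 1.28e-06). Tc1-2{}5456 had at most 0.559 CPM in P58S and 1.71 to 3.63 CPM in WT, also without overlap (-4.61 ± 0.40, adjusted p = 3.95e-09). PMCA itself changed by -0.03 ± 0.05 (adjusted p = 0.839). Over the 13 called insertions that lie on the strand of a tested host gene, the host had the same sign for 7, and no host passed the test in the direction of its insertion.

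**Figure D2:**
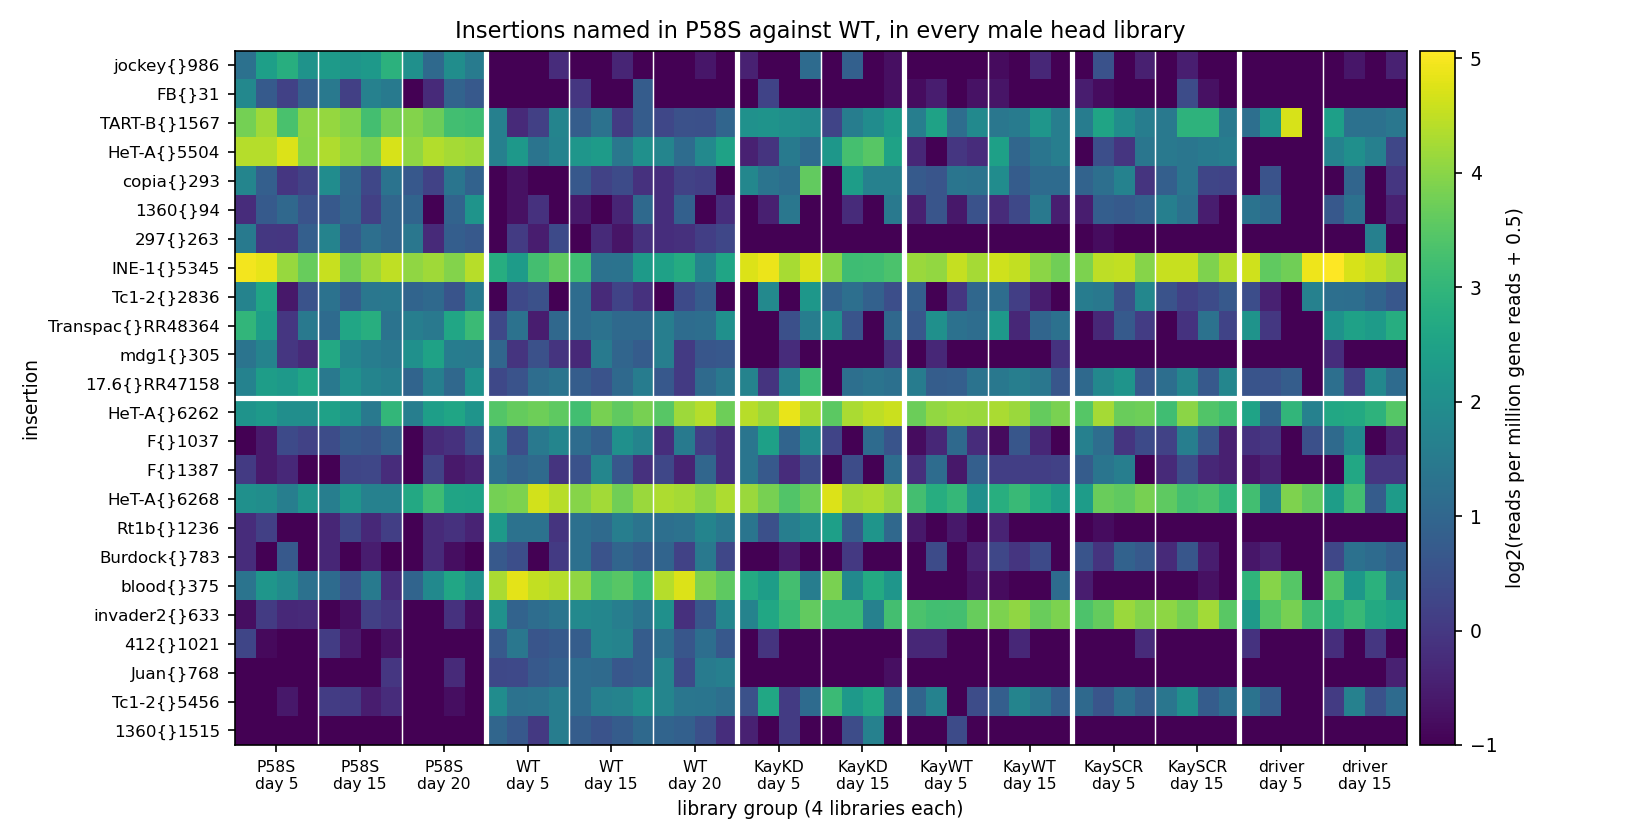
Log2(CPM + 0.5) of the 24 insertions named for P58S against WT, 12 higher above the horizontal white line and 12 lower below it, in each of the 56 male libraries (columns, 4 per group). Rows such as jockey{}986 and 1360{}1515 are read in nearly all libraries of one genotype and few or none of the other, and the driver and kay columns follow P58S in some rows and WT in others.

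Calls were also made at each age alone. Of the 403 tested members, 18 passed at day 5, against 2.07% of all features, 15 at day 15 (1.18%) and 17 at day 20 (1.9%). With only the groups compared in the fit, 8 passed at day 5. At day 15, 9 passed without replicate 2 of P58S. Passing at all 3 ages were 10 members, against 0.434% of all features: blood{}375, mdg1{}900, jockey{}986, 1360{}1515, TART-B{}1567, INE-1{}5345, Tc1-2{}5456, HeT-A{}5504, HeT-A{}6262 and HeT-A{}6268. Of these, jockey{}986, 1360{}1515 and Tc1-2{}5456 passed the filter only through the group where they are high, so the count is partly set by the filter. The difference between the P58S effect at day 20 and that at day 5 passed for no member in edgeR or in DESeq2, with 30 members at an unadjusted p under 0.05 and 0.177% of all features passing. By chromosome, the X had 6 members higher and 0 lower in P58S of 57 tested, against 1.81% higher and 1.57% lower of all features on the X. Chromosome 4 had 4 higher and 8 lower of 61, against 3.18% and 10.8% of all features there, which include these members. By class, to be read against 2.82% higher and 3.14% lower over all features, non-LTR elements had 3 higher and 13 lower of 119, and LTR elements had 9 higher and 7 lower of 151.

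Summed by family, 12 of 93 tested families passed, against 5.77% of the features in the table with family sums, 2.72% higher and 3.05% lower. Higher in P58S were TART-B (3.44, its 1 member), Stalker4 (0.81 ± 0.21), mdg1 (0.67 ± 0.09), H (0.60 ± 0.10) and jockey (0.43 ± 0.12). Lower were Juan (-1.56 ± 0.44), TART-C (-0.97 ± 0.23), 412 (-0.77 ± 0.15), F (-0.57 ± 0.07), blood (-0.56 ± 0.08), HeT-A (-0.37 ± 0.08) and roo (-0.20 ± 0.05). When the member with most reads was left out of each family, 7 families passed. R2 did not pass the test, with 221 to 438 CPM in P58S and 255 to 388 CPM in WT (0.11 ± 0.07, adjusted p = 0.411).

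The driver libraries also carry P58S, and they were set beside both genotypes for these 43 members. The median of the 8 driver libraries fell within the range of the P58S libraries alone for 11 members, within the WT range alone for 6, within both for 16 and within neither for 10. INE-1{}5345 stayed on the P58S side, with a driver median of 23.4 CPM (11.6 to 33.0). jockey{}986 and copia{}293 did not, with a driver median of 0 for both. HeT-A{}5504 had 0 CPM in all 4 driver libraries of day 5 and 2.71, 3.54, 2.61 and 0.718 CPM at day 15. For TART-B{}1567, 7 of 8 driver libraries had 0 to 4.87 CPM, and replicate 3 of day 5 had 25.5 CPM.

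Genes known to repress elements were examined as a list. Of 51 listed genes of the piRNA and siRNA pathways and of heterochromatin, 49 were matched in the table and 31 were tested. None passed for P58S against WT in edgeR or in DESeq2, with 6 at an unadjusted p under 0.05 and a median log2 fold change of -0.02. squ, a piRNA pathway gene, changed by -0.84 ± 0.32 (adjusted p = 0.135).

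With age, members rose and fell in all 3 sets of libraries, and 6 of the 8 that rose in every set lie in one stretch of chromosome 3L. In P58S heads 18 members rose and 18 fell at day 20 relative to day 5, against 15.7% of all features, 7.06% rising and 8.63% falling. In WT heads 20 rose and 13 fell, against 10.4% of all features, 5.04% rising and 5.39% falling. In the kay set 28 rose and 4 fell at day 15 relative to day 5 over its 4 genotypes, against 16.4% of all features, 8.12% rising and 8.31% falling. These 3 sets share no library. With only the groups compared in the fit, 14 members passed in P58S, and 21 passed without replicate 4 of P58S day 20. Without the filter on low counts, 56 passed in the kay set. In each, the share of tested members that passed was below the share of all features. Of the 403 tested members, 9 rose in both P58S and WT, as did 228 of all 10144 features (2.25%). These 9 are 50.0% of the P58S list and 45.0% of the WT list of rising members. For all features, the 228 stand beside 716 rising in P58S and 511 rising in WT. Rising in all 3 sets were 8 members, against 1.7% of all features.

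AGO3 encodes a piRNA-binding Argonaute protein active in the germ line. The gene lies on the plus strand of chromosome 3L at 23554593 to 23689640 and is made mostly of introns. The stretch from 75 kb before the gene to its end held 56 members, 40 on the minus strand and 16 on the plus strand. It was chosen after its values were seen, so its values are a description and no test is given for the stretch as a whole. On the minus strand, all 17 tested members had a positive age change in P58S, all 17 in WT and all 13 in the kay set. Of these, 8 passed in P58S, 7 in WT and 12 in the kay set, with median log2 fold changes of 1.65, 1.62 and 2.33. Outside the stretch, 10 of 384 tested members rose in P58S, 12 of 384 in WT and 16 of 433 in the kay set. On the plus strand 2 members were tested in each set, and 1 of them rose, in WT.

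Summed over the minus-strand members of the stretch, P58S heads had 35.6, 40.5, 37.3 and 33.2 CPM at day 5, 102, 97.9, 105 and 92.8 CPM at day 15 and 105, 117, 94.0 and 114 CPM at day 20. WT heads had 33.9, 29.4, 22.2 and 22.4 CPM at day 5, 95.3, 89.7, 115 and 111 CPM at day 15 and 88.0, 94.5, 98.1 and 95.5 CPM at day 20. In both genotypes every library of day 15 and day 20 was above every library of day 5. In the kay set the sums averaged 45.4 ± 16.6 CPM at day 15 and 13.7 ± 4.62 CPM at day 5 in KayKD, and 58.2 ± 14.0 and 13.0 ± 2.46 CPM in KayWT. They averaged 85.1 ± 6.99 and 16.1 ± 6.08 CPM in KaySCR, and 88.9 ± 6.97 CPM at day 15 and 22.6 ± 5.04 CPM at day 5 in the driver alone (SD, n = 4 each). The plus strand members together averaged 1.33 to 7.60 CPM in all groups. AGO3 itself averaged at most 1.67 CPM in any group, and its age change was 1.30 ± 0.78 in P58S (adjusted p = 0.285) and 0.27 ± 0.82 in WT (adjusted p = 0.885). The strand given is that of the annotated insertion, and the strand of the reads is not known, since the strand setting of the counting is not named. Whether the reads of the minus-strand members come from single elements or from one longer transcript was not tested.

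**Figure D3:**
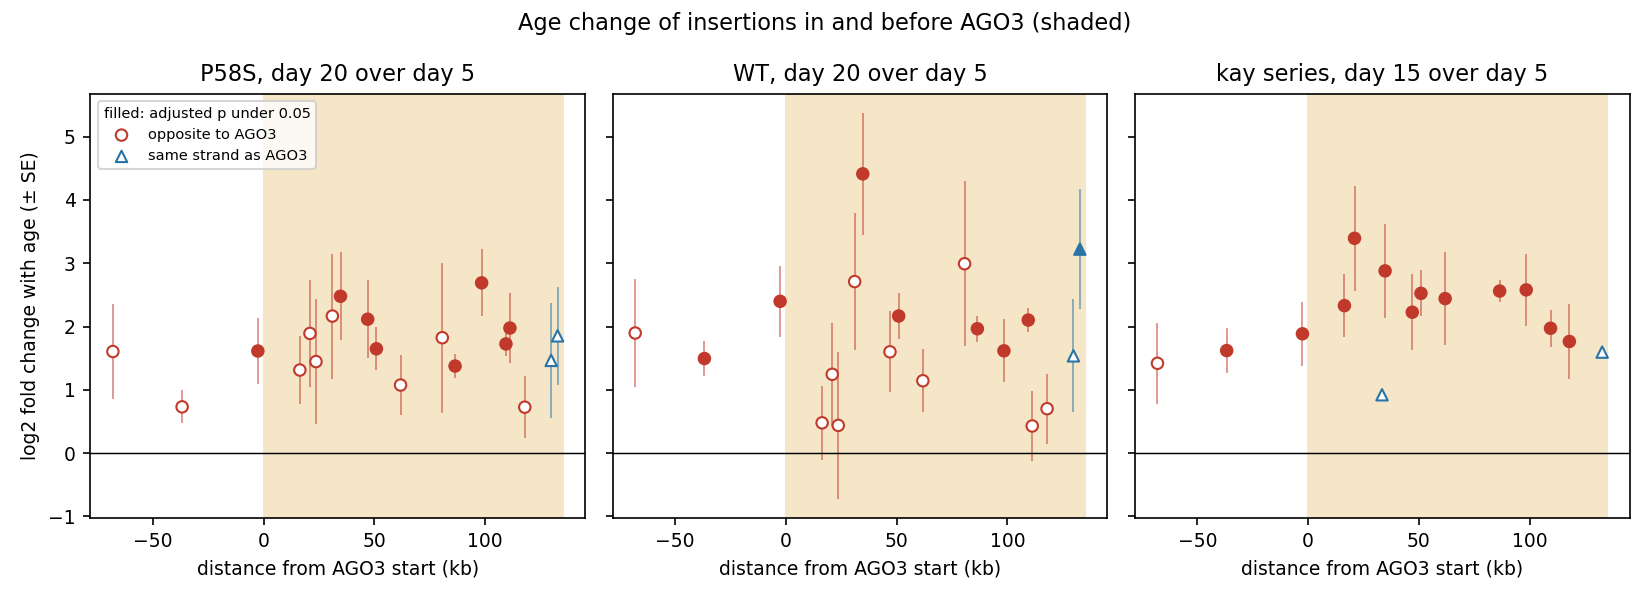
Log2 fold change with age (vertical axis, ± SE) of the tested insertions in and before AGO3, by distance from the start of the gene in kb (horizontal axis), for P58S, WT and the kay set. Circles are insertions on the strand opposite to AGO3 and triangles those on its strand, filled where the adjusted p is under 0.05, and shading marks the gene. No error bar is drawn for the 2 triangles of the kay set, whose SE is very large. All circles lie above 0 in each panel.

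Members of this stretch show the size of the change. rooA{}4668, an LTR element of 6821 bases in an intron of AGO3 on the other strand, had 10.5, 11.4, 9.81 and 7.98 CPM in P58S heads at day 5. It had 22.3, 20.6, 20.5 and 21.1 CPM at day 15 and 25.3, 29.1, 23.0 and 30.3 CPM at day 20. In WT heads it had 7.83, 7.38, 3.98 and 3.34 CPM at day 5, 22.2, 23.7, 20.7 and 23.4 CPM at day 15 and 26.0, 20.2, 23.2 and 19.0 CPM at day 20. Both later ages were above day 5 in every library. The log2 change at day 20 relative to day 5 was 1.38 ± 0.19 in P58S (adjusted p = 1.35e-05) and 1.97 ± 0.20 in WT (adjusted p = 2.64e-07), and in the kay set it was 2.56 ± 0.18 at day 15 relative to day 5 (adjusted p = 4.20e-13). Also rising in all 3 sets were ZAM{}4667 (2.69, 1.62 and 2.58 in P58S, WT and the kay set) and the 53-base G4{}5877 (2.48, 4.41 and 2.88). Porto1{}2980, flea{}4150 and invader1{}1182, named after their values were seen, rose by 1.73, 1.65 and 1.61 in P58S and by 2.10, 2.17 and 2.40 in WT.

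Outside the stretch, copia and accord2 elements rose. accord2{}5034 (chromosome 2R, 5598153 to 5600365, between genes) had 11.6, 8.95, 9.79 and 7.63 CPM in P58S heads at day 20 and 1.66, 0.850, 0.316 and 0.639 CPM at day 5. In WT heads it had 7.22, 6.92, 4.91 and 9.11 CPM at day 20 and 0, 0.108, 1.22 and 0 CPM at day 5. The ages did not overlap. The change was 3.25 ± 0.49 in P58S (adjusted p = 6.20e-05), 4.02 ± 0.57 in WT (adjusted p = 3.29e-05) and 3.33 ± 0.54 in the kay set (adjusted p = 2.17e-05). copia{}1684 had 20.3, 16.9, 16.3 and 16.1 CPM at day 20 and 2.96, 5.52, 5.54 and 3.19 CPM at day 5 in P58S heads. In WT heads it had 9.38, 9.14, 19.2 and 14.2 CPM at day 20 and 1.12, 3.47, 2.04 and 4.57 CPM at day 5, again without overlap. It rose by 1.93 ± 0.29 in P58S and by 1.99 ± 0.31 in WT. In the kay set it was hardly read, with medians of 0 to 0.167 CPM in the 4 genotypes. Summed over 24 members, the copia family rose by 1.37 ± 0.21 in P58S, 1.81 ± 0.21 in WT and 0.76 ± 0.15 in the kay set.

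**Figure D4:**
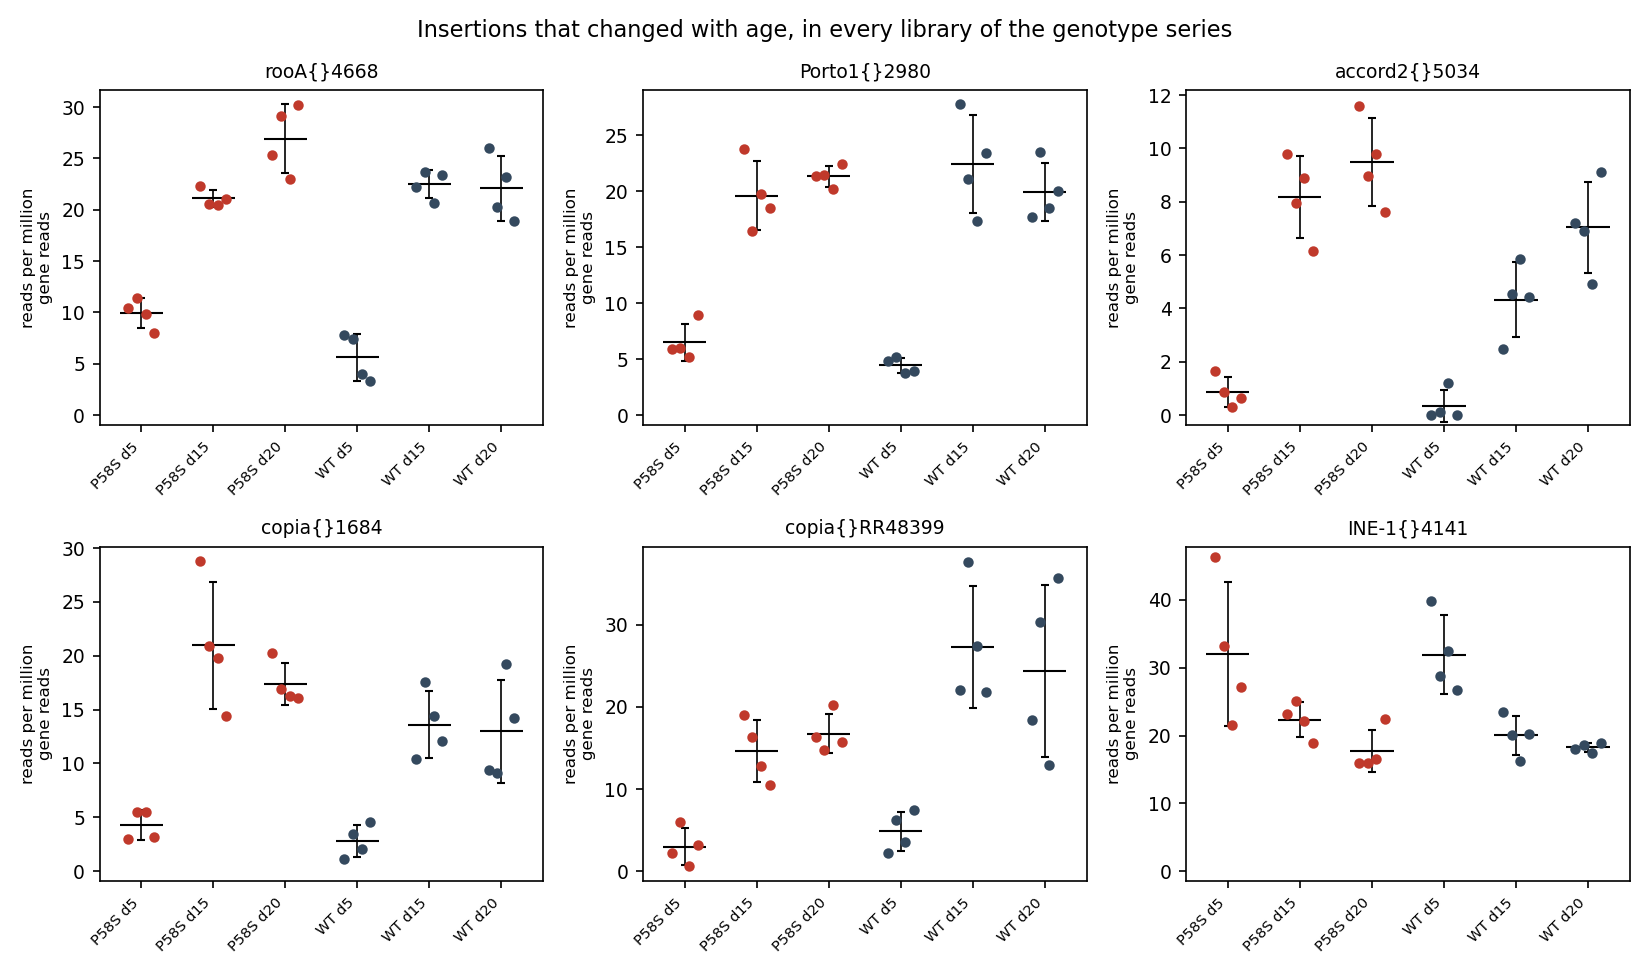
Level in CPM (vertical axis) of 6 insertions in each P58S and WT library by age (horizontal axis). Points are libraries, bars are means and error bars are SD (n = 4). In the first 5 panels the libraries of days 15 and 20 lie above those of day 5 in both genotypes, and INE-1{}4141 is lower at day 20, with replicate 4 of P58S at 22.4 overlapping the lowest day 5 library at 21.5.

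Falling in all 3 sets were 2 members, both INE-1 copies, against 2.18% of all features. INE-1{}4141, in an intron of nrv3 on its strand, had 15.9, 16.0, 16.5 and 22.4 CPM at day 20 and 46.3, 33.1, 21.5 and 27.1 CPM at day 5 in P58S heads. In WT heads it had 18.0, 18.5, 17.4 and 19.0 CPM at day 20 and 39.9, 28.7, 32.4 and 26.7 CPM at day 5. In P58S, replicate 4 of day 20 lay above the lowest library of day 5, and in WT the ages did not overlap. It fell by 0.88 ± 0.19 in P58S, by 0.87 ± 0.19 in WT and by 0.38 ± 0.10 in the kay set. nrv3, which encodes a subunit of the sodium pump, also fell, by 0.78 ± 0.09, 0.61 ± 0.09 and 0.50 ± 0.07. INE-1{}3470, between genes on 2R, fell by 0.89 ± 0.26, 1.00 ± 0.25 and 0.54 ± 0.14 in the same sets, and its call in P58S was lost in 3 of 8 fits that left out 1 library. By class, 0 of 68 tested INE-1 copies rose and 6 fell in P58S, and 0 rose and 4 fell in WT, with median log2 fold changes of -0.41 and -0.32. Of 90 tested in the kay set, 1 rose and 3 fell, with a median of 0.07. Over all features, 7.06% rose and 8.63% fell in P58S, 5.04% and 5.39% in WT, and 8.12% and 8.31% in the kay set.

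An R2 and a blood insertion passed with age in 2 of the 3 sets each. R2{}RR48361 rose by 0.39 ± 0.12 in P58S (adjusted p = 0.0216), where it had 412, 437, 345 and 438 CPM at day 20 and 334, 336, 221 and 322 CPM at day 5. In the kay set it rose by 0.88 ± 0.12 (adjusted p = 1.31e-06). blood{}1094, in an intron of CG14459, rose by 0.83 ± 0.15 in WT (adjusted p = 0.000397) and by 1.39 ± 0.10 in the kay set (adjusted p = 4.17e-13). Whether these age effects differ between genotypes was tested only for P58S against WT, where no member passed.

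Summed by family, 9 families rose and 6 fell in P58S, against 16% of the features in the table with family sums, 7.23% rising and 8.82% falling. In WT 13 rose and 7 fell, against 10.7%, of which 5.16% rising and 5.53% falling. The kay set had 18 rising and 0 falling, against 17%, of which 8.38% rising and 8.6% falling. Without replicate 2 of WT day 20, 13 families passed in WT. accord2, Porto1, copia, flea, invader1 and G4 were among those rising in each set. For 3 of them the member with most reads lies in the AGO3 stretch, with 96.7% of the reads of Porto1, 78.0% of those of invader1 and 61.5% of those of flea. Without the members of the stretch, 13 families passed in WT and 10 in the kay set. accord2 and copia still passed in each set, whereas flea (0.58, 0.57 and 0.28 in P58S, WT and the kay set) and G4 (0.55, -0.13 and 0.52) passed in none. invader1 did not pass in the kay set (0.69), and rooA did not pass in WT (-0.05).

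Among the repressor genes, mino, which encodes a mitochondrial acyltransferase of the piRNA pathway, was higher at the later age in P58S (0.73 ± 0.11), WT (0.93 ± 0.11) and the kay set (0.89 ± 0.14). del, a partner of Rhino on piRNA clusters, rose in WT (1.14 ± 0.26), and Lam, the B-type lamin, rose in WT (0.37 ± 0.09) and in the kay set (0.28 ± 0.06). SoYb (1.90 ± 0.53) and lola (0.20 ± 0.05) also rose in the kay set. In total 1 of 31 tested genes rose in P58S, 3 of 31 in WT and 4 of 30 in the kay set, against 7.06%, 5.04% and 8.12% of all features, and none fell.

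Between the kay arms and the driver alone, several insertions were read in one genotype and unread in another. All 3 arms are set against the same 8 driver libraries, so their values are given side by side. Of 448 tested members, 28 passed in KayKD, 21 higher and 7 lower, against 5.3% of all features, 2.73% higher and 2.57% lower. With only the groups compared in the fit, 16 passed in KayKD. In KayWT 66 passed, 47 higher and 19 lower, against 8.66% of all features, 4.48% higher and 4.18% lower. In KaySCR 57 passed, 47 higher and 10 lower, against 4.96% of all features, 2.83% higher and 2.13% lower. Of the 122 tested non-LTR elements, 13 were higher and 0 lower in KayKD, 33 and 2 in KayWT and 30 and 1 in KaySCR. Each arm carries another transgene than the driver control, and the stock that brought it cannot be told apart from an effect of kay. The KayWT library with 330 CPM of testis markers was also left out, and 63 members then passed.

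diver{}1372 is an LTR element in an intron of the long noncoding RNA gene bxd on chromosome 3R (16756375 to 16762507). It had no read in any of the 24 libraries of KayKD, KayWT and KaySCR. The driver libraries held 18.7, 20.0, 6.21 and 15.3 CPM at day 5 and 5.77, 7.38, 9.02 and 9.45 CPM at day 15, 458 reads in all. It was at least 138-fold lower in KayKD, at least 285-fold lower in KayWT and at least 219-fold lower in KaySCR, with 3 reads over the group as the limit. It also had no read in the 24 libraries of P58S without the driver and of WT.

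Other insertions were read in KayKD and the driver alone and hardly in KayWT and KaySCR. rover{}1275, in pyd on the other strand, had 0 CPM in 7 of 8 KayWT libraries and in all 8 KaySCR libraries. KayKD libraries had 0.672 to 7.14 CPM and driver libraries 0.722 to 9.45 CPM, so these overlapped. It was lower in KayWT (-7.09 ± 0.83, adjusted p = 2.89e-06) and at least 84.6-fold lower in KaySCR. rover{}1275 passed the filter only through groups where it is high, so its p-value is no added evidence. blood{}375 was also low in both arms, with at most 1.68 CPM in KayWT and at most 0.201 CPM in KaySCR, against 0 to 15.2 CPM in the driver alone (-5.75 ± 0.81 and -6.99 ± 0.91). INE-1{}4121 had no read in either arm and 43 reads in the driver alone, at least 26.7-fold lower in KayWT and at least 20.6-fold lower in KaySCR. flea{}877 was lower in KayWT (-5.12 ± 0.86, adjusted p = 0.000183), with 0 CPM in 7 of 8 libraries, while KaySCR had 1.46 to 5.87 CPM and the driver alone 0 to 3.07 CPM.

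Some insertions were read in an arm and hardly in the driver alone. In KayKD, jockey{}288 had 6.22, 3.59, 2.87 and 12.4 CPM at day 5 and 6.93, 2.99, 1.34 and 2.36 CPM at day 15, against a single driver library above 0, at 0.142 CPM (6.85 ± 0.99, adjusted p = 2.24e-05). 297{}273 had 82 reads in KayKD and none in the driver alone, at least 30.1-fold higher. Rt1b{}1236, in gpp, had 73 reads and was at least 26.8-fold higher, and invader3{}1256 had 65 reads and was at least 23.9-fold higher. KayWT and KaySCR had few or no reads of these 4. They passed the filter only through KayKD and had to differ, so their p-values are no added evidence. In DESeq2, 297{}273 and invader3{}1256 did not pass (adjusted p = 0.216 and 0.517).

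Neighbouring insertions on chromosome 2R were read in KayWT and KaySCR. Doc3-element{}619 (5107004 to 5108157) had 3.15 to 8.79 CPM in KayWT and 1.80 to 9.30 CPM in KaySCR, against 0 to 3.97 CPM in the driver alone (5.05 ± 0.91, adjusted p = 0.000417, and 4.84 ± 0.92, adjusted p = 0.00119). Its neighbours Fw2{}2920 (5098996 to 5106837) and opus{}2507 (5095773 to 5098592) had no driver read. Fw2{}2920 was at least 32.4-fold higher in KayWT and at least 31.1-fold higher in KaySCR, and it also passed in KayKD (5.49 ± 1.28, adjusted p = 0.00883). Doc3-element{}619 and Fw2{}2920 passed the filter through arms where they are high, so their p-values are no added evidence. opus{}2507 was at least 16.3-fold higher in KayWT and at least 23.0-fold higher in KaySCR. jockey2{}2911 nearby, at 5131610 to 5132318, was higher in both (6.37 ± 1.01 and 5.76 ± 1.02).

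**Figure D5:**
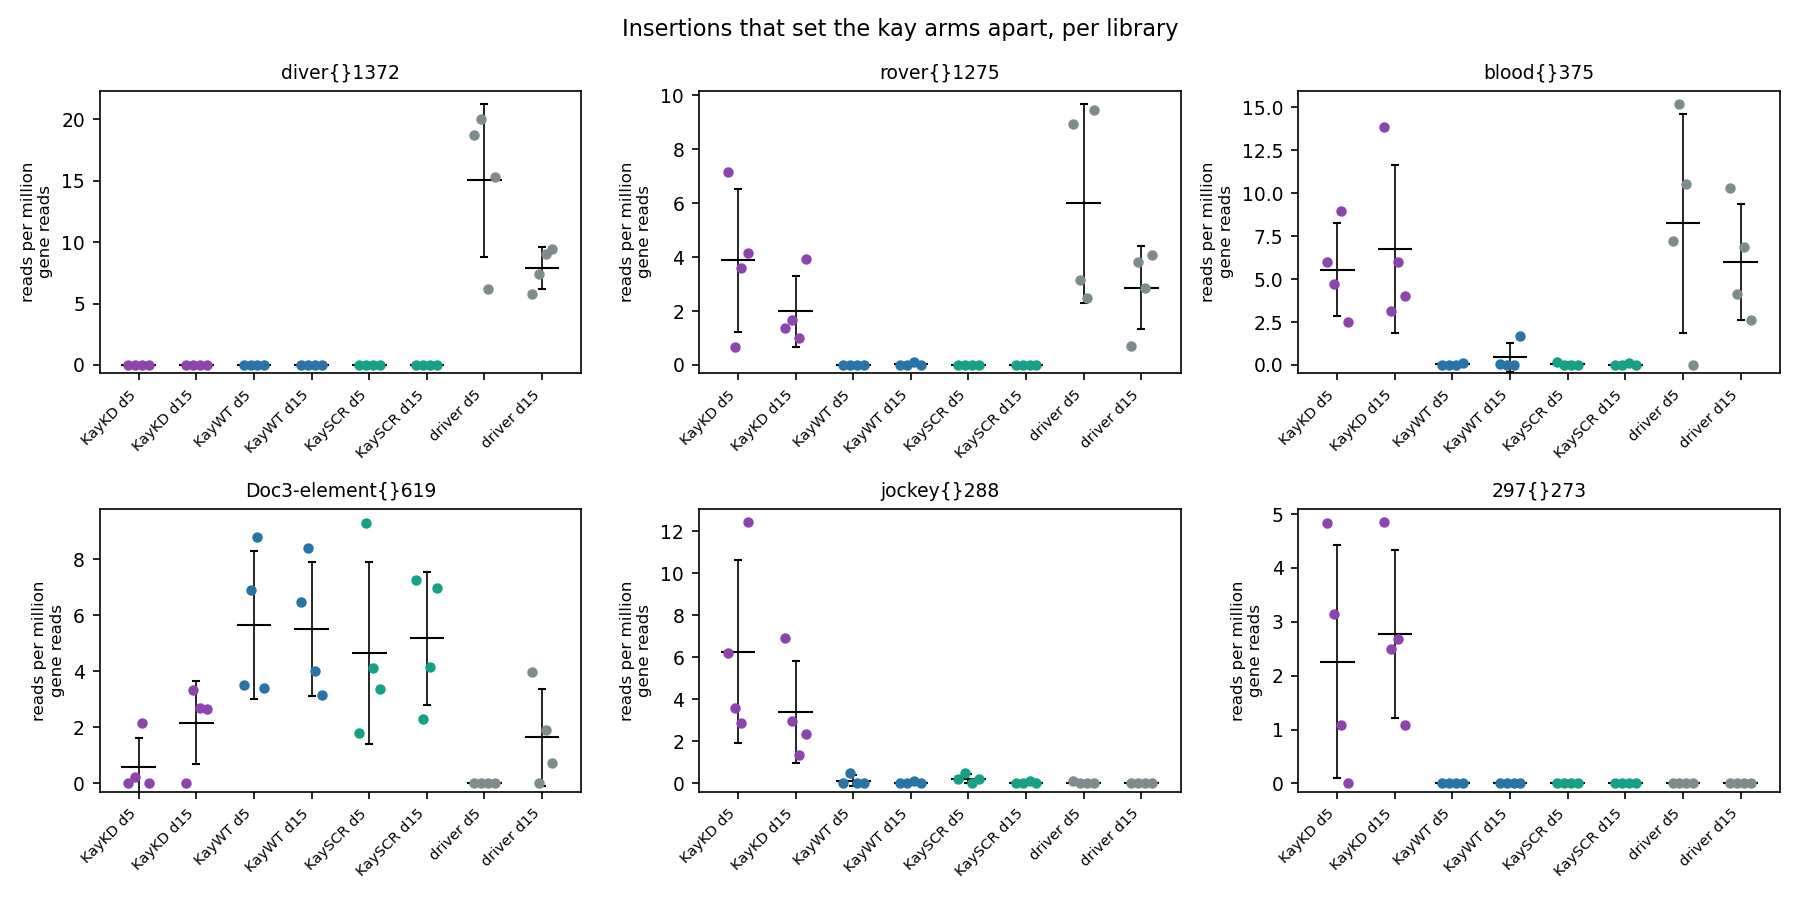
Level in CPM (vertical axis) of 6 insertions in each library of the kay set, by genotype and age (horizontal axis). Points are libraries, bars are means and error bars are SD (n = 4). diver{}1372 is read in the driver alone, rover{}1275 and blood{}375 in KayKD and the driver, Doc3-element{}619 mostly in KayWT and KaySCR, and jockey{}288 and 297{}273 nearly or wholly in KayKD.

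Next to the same driver libraries, gypsy5{}103 changed by 6.10 ± 1.02 in KayKD, 4.12 ± 1.06 in KayWT and 5.14 ± 1.03 in KaySCR. The driver libraries had a median of 0 CPM and at most 0.1475 CPM of gypsy5{}103, so the sizes of these changes are poorly determined. HeT-A{}6262 had 11.1 to 28.5 CPM in KayKD, 12.0 to 19.1 CPM in KayWT and 8.71 to 18.5 CPM in KaySCR, against 1.45 to 10.7 CPM in the driver alone. Neither KayKD nor KayWT overlapped the driver libraries, and the changes were 1.97 ± 0.24, 1.58 ± 0.23 and 1.16 ± 0.23. HeT-A{}5504 was higher in KayKD alone by the test (3.82 ± 0.88, adjusted p = 0.00732), and a difference between arms was not tested. Doc{}1362 was unread in the driver at day 5 and had 0.359 to 0.722 CPM at day 15, against 0 to 3.77 CPM in KayKD, 1.87 to 4.63 CPM in KayWT and 0.675 to 4.80 CPM in KaySCR. Its changes were 4.19 ± 0.77, 5.12 ± 0.73 and 4.79 ± 0.74.

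Some insertions were read in all genotypes of the kay set and differed in amount. rooA{}4668, the intronic copy in AGO3, was lower in KayKD, with 0.448 to 13.1 CPM (median 4.00), against 3.12 to 21.3 CPM in the driver alone (median 12.2). The libraries overlapped, and it fell by 1.53 ± 0.27 in KayKD (adjusted p = 0.000362) and by 0.73 ± 0.24 in KayWT (adjusted p = 0.0471). INE-1{}2451 lies in an intron of Nipped-A, which encodes a subunit of histone acetyltransferase complexes, on the strand of that gene. It had a median of 3.18 CPM in KayKD, 14.2 CPM in KayWT and 16.8 CPM in KaySCR, against 7.64 CPM in the driver alone. It was lower in KayKD (-1.32 ± 0.31) and higher in KayWT (1.01 ± 0.27) and KaySCR (1.16 ± 0.27). With only the groups compared in the fit, the call in KayKD was lost (adjusted p = 0.0887). Nipped-A itself changed by -0.22 ± 0.11 in KayKD (adjusted p = 0.255) and -0.22 ± 0.11 in KaySCR (adjusted p = 0.284). In KayWT it fell by 0.40 ± 0.11 (adjusted p = 0.0148), opposite to the insertion. H{}84 was lower in KayWT (-0.43 ± 0.09) and KaySCR (-0.51 ± 0.09), and HMS-Beagle{}333 was higher in both (0.59 ± 0.15 and 0.62 ± 0.15). invader2{}1169 on 3L was lower in KayKD (-0.69 ± 0.15), with 17.3 to 44.2 CPM, against 41.0 to 83.2 CPM in the driver alone.

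R2{}RR48361 went in different directions in the arms. It averaged 50.7 ± 12.8 CPM at day 5 and 107 ± 25.3 CPM at day 15 in KayKD, 36.0 ± 5.86 and 77.3 ± 16.2 CPM in KayWT, and 12.9 ± 3.08 and 24.6 ± 2.35 CPM in KaySCR. In the driver alone it averaged 39.7 ± 14.5 CPM at day 5 and 59.9 ± 17.2 CPM at day 15. It was higher in KayKD (0.66 ± 0.17, adjusted p = 0.0153) and lower in KaySCR (-1.42 ± 0.17, adjusted p = 8.81e-07).

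Summed by family, 11 of 99 tested families passed in KayKD, against 5.33% of the features in that table, 13 in KayWT (8.35%) and 15 in KaySCR (4.57%). Without replicate 1 of the driver at day 15, 9 families passed in KaySCR. The arms are again set against the same driver libraries. diver changed by -9.11 ± 1.12 in KayKD, -6.09 ± 0.77 in KayWT and -7.37 ± 0.89 in KaySCR. Its member diver{}1372, unread in every arm, holds 92.3% of the family's reads, so the differences in size between arms are poorly determined. opus was higher by 1.23 ± 0.17, 1.62 ± 0.17 and 1.92 ± 0.17 in the same arms, and copia by 1.11 ± 0.21, 1.23 ± 0.21 and 0.79 ± 0.21. gypsy5 was higher by 5.10 ± 1.06, 3.69 ± 1.09 and 4.51 ± 1.06. Its member gypsy5{}103, nearly unread in the driver alone, holds 87.3% of the family's reads, so these sizes are poorly determined too. Doc was higher by 0.41 ± 0.10 in KayKD, 1.18 ± 0.10 in KayWT and 1.15 ± 0.10 in KaySCR, and HeT-A by 1.48 ± 0.17, 0.71 ± 0.17 and 0.62 ± 0.17. roo, with 119 members, was lower in KayWT (-0.50 ± 0.08) and KaySCR (-0.39 ± 0.08). Of 30 tested repressor genes, 1 was higher and 1 lower in KayKD, 2 and 0 in KayWT and 1 and 1 in KaySCR. Of all features, 5.3%, 8.66% and 4.96% passed in these arms. squ was higher in KayKD (1.48 ± 0.32), KayWT (1.31 ± 0.31) and KaySCR (1.66 ± 0.31). Su(var)205, which encodes heterochromatin protein HP1a, was lower in KayKD (-0.40 ± 0.12) and KaySCR (-0.39 ± 0.12), and Panx, a piRNA silencing factor, was higher in KayWT (0.68 ± 0.21).

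The widest contrast was between P58S heads with and without the driver, which come from the 2 sets. At days 5 and 15 together, 116 of 545 tested members passed, 39 higher and 77 lower in driver heads, against 14.6% of all features, 7.01% higher and 7.56% lower. The set, the driver and the stock differ at once here and cannot be told apart. Of 147 tested non-LTR elements, 6 were higher and 49 lower. Of 35 tested repressor genes, 2 were higher and 2 lower, with squ and Su(var)205 among those called. The Doc family, with 65 members, averaged 76.4 ± 19.9 CPM at day 5 and 109 ± 8.59 CPM at day 15 with the driver, against 395 ± 43.6 and 382 ± 30.8 CPM without it, and fell by 2.09 ± 0.09 (adjusted p = 1.48e-24).

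R2{}RR48361 had 23.2, 40.6, 58.4 and 36.4 CPM with the driver at day 5, against 334, 336, 221 and 322 CPM without it. At day 15 it had 75.3, 45.6, 44.4 and 74.2 CPM with the driver and 300.2, 315, 288 and 297 CPM without it. The libraries did not overlap, and it fell by 2.65 ± 0.14 (adjusted p = 9.00e-21). copia{}1684 (-7.81 ± 0.63) and HeT-A{}5504 (-6.58 ± 0.55) were lower with the driver as well. FB{}31 had no driver read and was at least 23.1-fold lower.

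Higher with the driver were HMS-Beagle{}333 (1.32 ± 0.15), H{}84 (0.84 ± 0.11) and invader2{}633 (4.43 ± 0.38). At days 5 and 15, blood{}RR48384 had 162 reads with the driver and none without it, at least 95.6-fold higher. 297{}1282, in an intron of the synapsin gene Syn, was at least 37.8-fold higher, INE-1{}2998 at least 46.6-fold and copia{}387 at least 29.5-fold. The call of copia{}387 was lost without replicate 3 of the driver at day 5 (adjusted p = 1). diver{}1372 was at least 270-fold higher, and in DESeq2 it did not pass (adjusted p = 0.301). Of the families, 23 of 103 tested passed, against 14.2% of the features in that table, and the called families with the largest changes were diver (7.06 ± 0.92), gypsy5 (-5.58 ± 0.85), baggins (-3.74 ± 1.25) and R2 (-2.65 ± 0.14).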

How the data were processed

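RNA of male heads was sequenced from 3′ ends with a V2 forward kit, per the labels' protocols. The authors deposited raw counts per gene and per insertion for 56 male libraries, as whole reads that are not normalized. The genome build is dm6, per the submitters' processing notes. The aligner, the counting program, its strand setting, its treatment of reads with several matches and any use of molecular identifiers were not named in these sources. Reads of near-identical copies may therefore be split between insertions, and antisense reads may be counted with a gene. The female tables were not used, since they hold no insertion rows.

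Insertions and genes were placed with the Ensembl release 115 annotation of BDGP6.54, whose coordinates are those of dm6, and all 1836 members were found there. Counts were tested with edgeR 4.0.16 in R 4.3.3 (quasi-likelihood test, TMM factors from gene rows, filterByExpr, 1 mean per group), on genes and insertions together, with p adjusted over all of them. Of the members, 403 passed the filter in the P58S and WT set, 448 in the kay set and 545 over all libraries. A member that passes the filter only through the group where it is high has to differ. The SE of a log2 fold change is its size over the root of the F statistic. Family sums replaced single insertions in a second table. Summed reads were compared by an exact permutation test over 70 splits. Where a group had no read, the bound takes 3 reads over the group.

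Members, gene lists and the stretch around AGO3 were chosen with earlier results of these data known. Named were the 10 members with most reads, up to 12 called members in each direction for P58S against WT, up to 6 for each contrast in the kay set and up to 5 for ageing, by size. Chosen after their values were seen were Porto1{}2980, flea{}4150, invader1{}1182, copia{}RR48399, mdg1{}900 and the members named as neighbours of others. The labels do not say that libraries come from separate animals, so the p-values reflect only how far these libraries spread, and that spread may be technical. Libraries of a group differed by more than sampling noise (lowest chi-square per degree of freedom 3.2). Equal replicate numbers did not pair samples, with correlations of -0.332 to 0.278 in 44 pairs and 5 above 0.1. Alternatives were DESeq2 1.42.0, RLE size factors, no filter beyond 10 reads, a replicate block, only the groups compared, each library left out, and family sums without the member with most reads, without members in exons or without the AGO3 stretch. The scripts were tested on simulated data.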

Additional observations from a re-analysis of the deposited data

Results flagged for a closer look

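Of 203 groups of 4 libraries checked for a single library far from the others, 11 had one, and chance gives about 1 in 20. In P58S heads, jockey{}986 had 6.99 CPM in replicate 4 of day 15 (others 3.97 to 4.47), HeT-A{}6268 had 3.97 CPM in replicate 2 of day 15 (others 2.51 to 2.68) and 8.63 CPM in replicate 2 of day 20 (others 5.23 to 5.79). INE-1{}4141 had 22.4 CPM in replicate 4 of P58S at day 20 (others 15.9 to 16.5), and R2{}RR48361 had 221 CPM in replicate 3 of P58S at day 5 (others 322 to 336). In WT heads, R2{}RR48361 had 388 CPM in replicate 2 of day 20 (others 336 to 343), 412{}1021 had 2.17 CPM in replicate 2 of day 5 (others 1.02 to 1.14) and accord2{}5034 had 1.22 CPM in replicate 3 of day 5 (others 0 to 0.108). In the kay set, Doc3-element{}619 had 2.15 CPM in replicate 3 of KayKD at day 5 (others 0 to 0.224). TART-B{}1567 had 25.5 CPM in replicate 3 of the driver at day 5 (others 0 to 3.86) and 4.87 CPM in replicate 1 of the driver at day 15 (others 1.90 to 2.15). The cause of these single values was not tested.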

How the results depend on the processing

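Direction and call were kept in most repeats. Of 2216 repeats for single named insertions none reversed and 173 lost the call, and of 454 repeats for counts 24 moved by over 1.5 times. With only the groups compared in the fit, P58S against WT at day 5 gave 8 members (18 with all groups), KayKD 16 (28) and P58S ageing 14 (36), and families gave 7 in KayKD (11), 9 in KaySCR (15) and 9 in P58S ageing (15). Without a filter beyond 10 reads, kay set ageing gave 56 members (32). Without the member with most reads, families passing were 7 for P58S against WT (12), 6 in KayKD, 9 in KaySCR, 11 in WT ageing (20), 10 in kay set ageing (18) and 12 for driver against plain P58S (23). Signs then turned for H and HMS-Beagle2 in KaySCR (0.36 and -1.14), HMS-Beagle in KaySCR and KayWT (-0.16 and -0.19), Cr1a and blood in WT ageing (0.23 and -0.37), Idefix and blood in kay set ageing (-0.041 and -0.12), and H and pogo in driver against plain P58S (-0.13 and 0.71). Without the AGO3 stretch, WT ageing gave 13 families and kay set ageing 10, and G4 and rooA turned in WT (-0.13 and -0.047).

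Leaving out 1 library gave 33 to 52 members for P58S against WT (43), 12 to 20 at day 5, 9 to 12 at day 15 (15) with the lowest value without P58S day 15 replicate 2, and 21 to 41 for P58S ageing (36), with 21 without P58S day 20 replicate 4. Families ranged from 9 to 15 in KaySCR, lowest without driver day 15 replicate 1, and from 13 to 16 in WT ageing (20), lowest without WT day 20 replicate 2. The change of the P58S effect with age passed for 0 to 1 members, and 0 to 1 repressor genes passed, with 1 without P58S day 5 replicate 2. The replicate block left 39 members for P58S against WT and changed no count by over 1.5 times, although 8 named insertions and 6 families lost their call. The cause of these shifts was not tested beyond the smaller number of libraries or insertions in each. The check in female heads was not run, and fits of only the groups compared do not differ for P58S against WT over 3 ages or for kay set ageing. Many called members rest on few reads, and in the shallowest library a count of 0 allows 2.49 CPM.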
